A study of Homo sapiens with 9 samples.

Results

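The small heat shock protein genes CRYAB, HSPB1, HSPB2, HSPB3, HSPB6 and HSPB8, and the co-chaperone gene BAG3, were examined in A549 cells, a human lung adenocarcinoma line, after knockdown of either enzyme of the polyol pathway. These 7 genes were found by symbol among the 57905 gene rows of the count table. The family was selected on the CRYAB counts, which had been seen to rise with the knockdown of SORD in the same libraries, so all CRYAB values are given as a description, with no test. The other members were taken by family membership.

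There were 3 libraries of cells carrying a short hairpin RNA (shRNA) against AKR1B1 (aldose reductase, which turns glucose into sorbitol), 3 of cells carrying an shRNA against SORD (sorbitol dehydrogenase, which turns sorbitol into fructose), and 3 control libraries, whose titles name plko and whose treatment label reads scrambled. All were grown in medium with 5% fetal bovine serum. The labels name one hairpin design per target and do not say whether the replicates are separate transductions, so each p-value reflects only how these libraries differ from one another, possibly for technical reasons. The libraries held 32436524 to 43044456 counts on genes. The targeted genes followed the labels: AKR1B1 was at 154 ± 11.7 CPM (counts per 1000000 counts of the library) in shAKR1B1 cells, 1063 ± 103 CPM in shSORD cells and 1416 ± 34.7 CPM in control cells, and SORD was at 30.6 ± 0.411, 8.62 ± 0.414 and 42.9 ± 1.19 CPM in the same order (SD, n = 3 each). SORD was thus also lower in shAKR1B1 cells than in control cells, and AKR1B1 lower in shSORD cells.

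Small heat shock proteins share an alpha-crystallin domain, assemble into oligomers and hold unfolding proteins in a soluble state without using ATP, until the ATP-driven HSP70 system can refold them or pass them on for degradation. CRYAB (alpha-B-crystallin) is a major protein of the eye lens and of muscle and binds intermediate filaments such as desmin, and HSPB1 (HSP27) is abundant in many epithelial cancers. HSPB8 acts in a complex with BAG3, which couples small heat shock proteins to HSP70 and steers clients to autophagy. Many genes of the system are induced by the heat shock factor HSF1, which binds inverted repeats of the unit nGAAn.

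The promoters of HSPB1, HSPB8 and BAG3, whose responses to the knockdowns differed from each other, are shown so that their heat shock motif letters can be compared, each as the 250 bases before the transcription start, 5′ to 3′ on the gene's strand. Sequences were taken from RefSeq on GRCh38.p14, whose promoter table held 5 of the 7 members. It had no entry for CRYAB or HSPB2, so the CRYAB promoter was not examined. The letters searched were GAANNTTC and TTCNNGAA, each its own reverse complement, so a search of either strand gives the same matches. Both are pairs of inverted heat shock units, and matches are in capitals. The windows are chr7:76302423-76302672 for HSPB1, chr12:119178681-119178930 for HSPB8 and chr10:119651130-119651379 for BAG3, all on the plus strand.
HSPB1: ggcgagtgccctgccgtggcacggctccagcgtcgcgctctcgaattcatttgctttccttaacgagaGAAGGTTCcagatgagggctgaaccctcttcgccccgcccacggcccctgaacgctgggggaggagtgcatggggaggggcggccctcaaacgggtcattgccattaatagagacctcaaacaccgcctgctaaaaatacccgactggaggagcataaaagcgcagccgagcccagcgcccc
HSPB8: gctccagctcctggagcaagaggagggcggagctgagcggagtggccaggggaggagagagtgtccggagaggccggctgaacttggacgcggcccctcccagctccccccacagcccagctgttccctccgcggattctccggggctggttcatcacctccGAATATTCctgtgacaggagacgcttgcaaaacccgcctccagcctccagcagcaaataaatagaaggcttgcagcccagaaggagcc
BAG3: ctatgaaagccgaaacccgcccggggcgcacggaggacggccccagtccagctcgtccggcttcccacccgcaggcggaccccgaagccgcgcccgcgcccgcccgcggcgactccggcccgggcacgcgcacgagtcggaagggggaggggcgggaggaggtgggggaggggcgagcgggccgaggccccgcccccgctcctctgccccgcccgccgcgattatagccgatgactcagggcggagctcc

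The HSPB1 window held GAAGGTTC at position -182 from the start, and the HSPB8 window held GAATATTC at position -88. HSPB6 (TTCTGGAA at -210 and GAATCTTC at -196) and HSPB3 (TTCTTGAA at -242) also had matches, and the BAG3 window had none of these letters. A match was thus found in 4 of 5 member genes, compared with 4067 of all 35116 promoters of the same length (11.6%) and 12 of 18 other genes known as heat-inducible HSF1 targets (66.7%). The shares of members and HSF1 targets count genes with a match in any promoter listed for them. The share over all counts single promoters, so it is not fully alike. HSPB1 and HSPB8, which both held a match, responded differently to the knockdowns, as shown next. Whether these letters have a part in either response was not tested.

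CRYAB was many-fold higher in both knockdowns than in control cells, while the abundant family member HSPB1 fell in shAKR1B1 cells. HSPB8 rose in shSORD cells and showed no detectable change in shAKR1B1 cells, and BAG3 fell in both. HSPB6 was too low to resolve a moderate change, and HSPB2 and HSPB3 were at or near 0 counts.

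CRYAB (ENSG00000109846, chromosome 11, minus strand) was at 7.23, 7.60 and 6.29 CPM in the 3 shAKR1B1 libraries, at 11.5, 11.6 and 9.43 CPM in the shSORD libraries, and at 0.414, 0.504 and 0.687 CPM in the control libraries. Every knockdown library lay above every control library, and every shSORD library above every shAKR1B1 library. The counts behind these values were 236, 308 and 271 in shAKR1B1 cells, 443, 474 and 376 in shSORD cells, and only 15, 19 and 27 in control cells. CPM here uses library sizes scaled by edgeR's trimmed mean of M values (TMM).

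In the edgeR quasi-likelihood fit over all 16916 genes that passed a filter on low counts, the fitted CRYAB level was 13.0-fold higher in shAKR1B1 than in control cells (log2 fold change 3.70, SE 0.175, higher in 3 of 3 libraries). The fold in shSORD cells over control cells was 20 (log2 4.32, SE 0.167), and CRYAB was 1.54-fold lower in shAKR1B1 than in shSORD cells (log2 -0.62, SE 0.114). Among all tested genes ordered by log2 fold change with the largest increase first, CRYAB was number 61 of the 16916 genes in shAKR1B1 and number 11 in shSORD cells against control cells.

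The CRYAB gain was large as a fold and modest as a level. Per kilobase of exon, CRYAB was at 2.32 CPM in shAKR1B1 cells, 3.57 CPM in shSORD cells and 0.176 CPM in control cells. The length used joins all annotated exons of the gene, 3034 bases, of which 20.6% overlaps HSPB2. It may be longer than the RNA measured, so the CRYAB level, its rank and its share of the family given below are rough and may be too low. On this per-length scale it lay above 42.3% of the tested genes with a known length in shAKR1B1 cells, above 51.0% in shSORD cells and above 10.7% in control cells. It thus stood near the middle of the tested genes in the knockdowns and near the bottom in control cells.

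**Figure D1:**
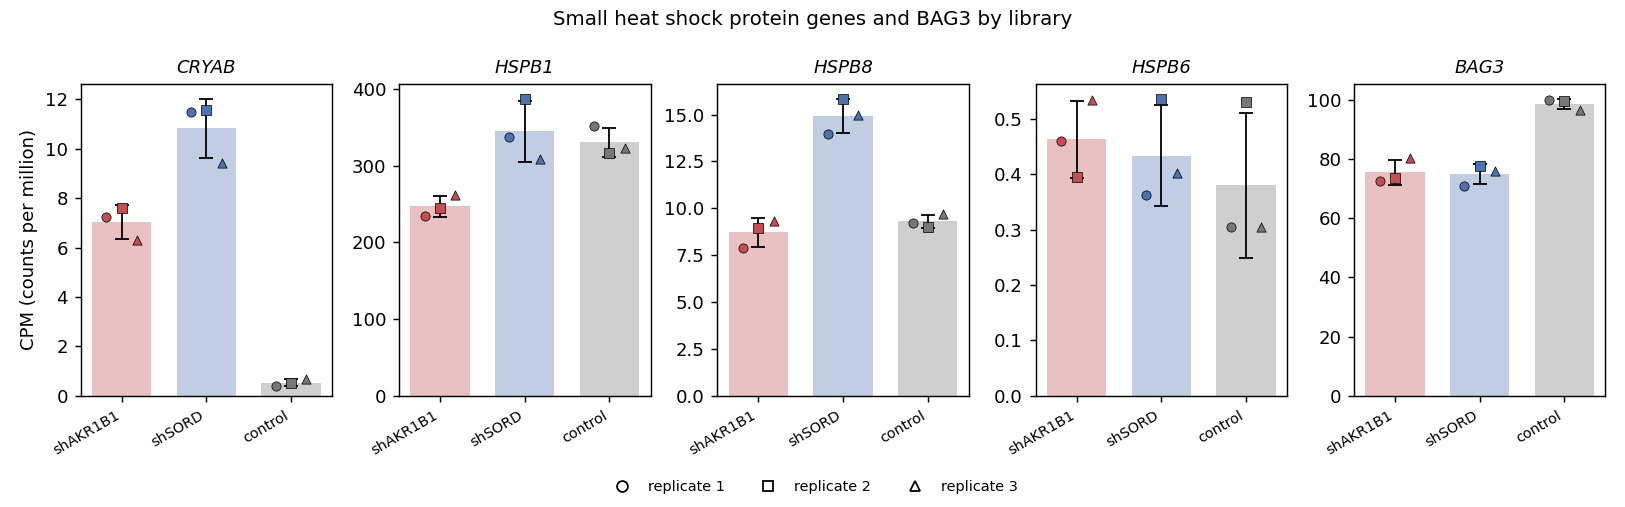
Expression of the 5 members that passed the filter, in CPM by library (points), with the group mean (bars) and SD (error bars, n = 3) for shAKR1B1, shSORD and control cells. CRYAB is at 6.29 CPM or more in each knockdown library and at 0.687 CPM or less in each control library, while BAG3 is at 80.3 CPM or less in each knockdown library and at 96.7 CPM or more in each control library.

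Outside CRYAB, 6 members remained, of which HSPB1, HSPB6, HSPB8 and BAG3 passed the filter. Of these 4, none rose and 2 fell in shAKR1B1 cells against control cells, where 27.8% of all tested genes were called higher and 29.6% lower (57.4% in either direction, at an adjusted p under 0.05). In shSORD cells, 1 rose and 1 fell, where 27.5% of all genes were called higher and 29% lower (56.5% in either direction). Between shAKR1B1 and shSORD cells, 2 of the 4 were lower and none higher, where 15.5% of all genes were called higher and 15.1% lower (30.7% in either direction). None of the 4 moved by 2-fold or more, where 12.4% of all genes were called with at least a 2-fold change in shAKR1B1 against control cells, 11.1% in shSORD against control cells and 5.19% between the knockdowns. Shares of this size mean that a call by itself was common in these data, so the size and direction of each member's change are given in turn.

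HSPB1 (ENSG00000106211, chromosome 7), the broadly expressed HSP27, was at 234.8, 244.3 and 261.5 CPM in shAKR1B1 cells, at 337.8, 387.3 and 308.9 CPM in shSORD cells and at 351.8, 316.4 and 322.7 CPM in control cells. The shAKR1B1 libraries lay below all 6 others, and the shSORD and control libraries overlapped. HSPB1 fell to 74.8% of its control level in shAKR1B1 cells (log2 -0.42, SE 0.0748, edgeR adjusted p = 0.00022, lower in 3 of 3 libraries) and was lower there than in shSORD cells too (log2 -0.48, SE 0.0748, edgeR adjusted p = 0.000173). In shSORD against control cells the difference was 0.06 on the log2 scale (SE 0.0745, edgeR adjusted p = 0.505), with a 95% interval of -0.0846 to 0.207.

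Per kilobase, HSPB1 was at 151 CPM in shAKR1B1 cells, 211 CPM in shSORD cells and 202 CPM in control cells, and it was among the most abundant tested genes in every group. It supplied 96.2% to 96.5% of the summed per-kilobase CPM of the 6 small heat shock protein genes in shAKR1B1 libraries, 95.6% to 96.1% in shSORD libraries and 98.1% to 98.4% in control libraries. CRYAB supplied 1.25% to 1.61% in shAKR1B1 libraries, 1.54% to 1.75% in shSORD libraries and 0.0624% to 0.113% in control libraries. The family's RNA was therefore mostly HSPB1 in every library, and the summed CPM of the 6 genes followed it: 250.4 to 277.8 in shAKR1B1, 333.7 to 415.3 in shSORD and 326.5 to 361.8 in control libraries.

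HSPB8 (ENSG00000152137, chromosome 12), the partner of BAG3, was at 7.87, 8.93 and 9.35 CPM in shAKR1B1 cells, at 14.0, 15.8 and 15.0 CPM in shSORD cells and at 9.22, 9.02 and 9.70 CPM in control cells. All 3 shSORD libraries lay above the 6 others, and the shAKR1B1 and control libraries overlapped. HSPB8 rose 1.6-fold in shSORD over control cells (log2 0.68, SE 0.0844, edgeR adjusted p = 8.14e-06, higher in 3 of 3 libraries). The difference between the knockdowns was itself past the threshold, with HSPB8 1.71-fold lower in shAKR1B1 than in shSORD cells (log2 -0.77, SE 0.0847, edgeR adjusted p = 6.24e-06). In shAKR1B1 against control cells the difference was -0.09 on the log2 scale (SE 0.0879, edgeR adjusted p = 0.394), with a 95% interval of -0.263 to 0.0814.

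BAG3 (ENSG00000151929, chromosome 10), the scaffold between small heat shock proteins and HSP70, was at 72.7, 73.4 and 80.3 CPM in shAKR1B1 cells, at 71.1, 77.6 and 76.0 CPM in shSORD cells and at 99.9, 99.6 and 96.7 CPM in control cells. Both knockdowns lay below every control library and overlapped with each other. BAG3 fell to 76.5% of its control level in shAKR1B1 cells (log2 -0.39, SE 0.0578, edgeR adjusted p = 4.43e-05) and to 75.9% in shSORD cells (log2 -0.40, SE 0.0578, edgeR adjusted p = 3.67e-05), each lower in 3 of 3 libraries. Between shAKR1B1 and shSORD cells the log2 difference was 0.01 (SE 0.058, edgeR adjusted p = 0.899), with a 95% interval of -0.102 to 0.126. Both comparisons with control cells share the same control libraries.

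Because HSPB8 and BAG3 moved in opposite directions in shSORD cells, their balance differed between the groups. The ratio of HSPB8 to BAG3 CPM was 0.108, 0.122 and 0.116 in the shAKR1B1 libraries, 0.196, 0.204 and 0.197 in the shSORD libraries and 0.0924, 0.0905 and 0.1 in the control libraries. The 3 groups did not overlap, and the shSORD libraries stood highest. These ratios are of gene counts not divided by length and were not tested beyond the member tests above.

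**Figure D2:**
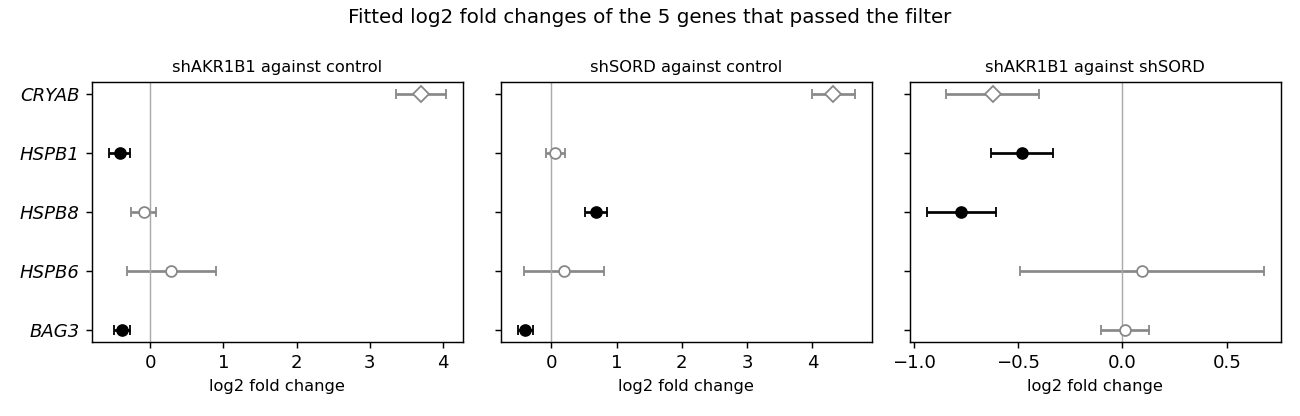
Fitted log2 fold changes (x axis) with 95% intervals of the 5 members that passed the filter in the 3 comparisons, where filled circles were called at an adjusted p under 0.05, open circles were not, and open diamonds are CRYAB values given with no test. HSPB8 is at 0.68 in shSORD against control cells and at -0.09 in shAKR1B1 against control cells, while BAG3 is at -0.39 in shAKR1B1 and at -0.40 in shSORD cells.

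HSPB6 (HSP20, ENSG00000004776, chromosome 19), a small heat shock protein best known from smooth and cardiac muscle, had 15, 16 and 23 counts in shAKR1B1 cells, 14, 22 and 16 counts in shSORD cells and 11, 20 and 12 counts in control cells. The groups overlapped. Its log2 difference from control cells was 0.29 in shAKR1B1 cells (SE 0.309, edgeR adjusted p = 0.447, 95% interval -0.32 to 0.893) and 0.19 in shSORD cells (SE 0.311, edgeR adjusted p = 0.619, 95% interval -0.417 to 0.804). A moderate change in either direction was not detectable at this depth. An unnamed gene on the opposite strand overlaps 38.2% of its exon length, and whether the counting used strand is not given in the sources used here.

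HSPB2 (ENSG00000170276, chromosome 11), a muscle-enriched member that lies head to head with CRYAB, had 0, 1 and 1 counts in shAKR1B1 cells, 0, 2 and 1 in shSORD cells and 0 in every control library. HSPB3 (ENSG00000169271, chromosome 5), also known from muscle, had 0, 1 and 2 counts in shAKR1B1 cells and 0 in every shSORD and control library. A count of 0 over a group still allows up to 3 counts, which is 0.0259 CPM over the shAKR1B1, 0.0256 CPM over the shSORD and 0.0258 CPM over the control libraries and covers counting error only. Both genes stayed below the filter, and no fold is given for them. The exons of HSPB2 overlap CRYAB over 46.9% of the HSPB2 length on opposite strands, so the few HSPB2 counts beside the far larger CRYAB counts cannot be assigned with certainty. The read-through gene HSPB2-C11orf52 overlaps 53.9% of the HSPB2 length on the same strand. How reads on shared exons were counted is not known here, so HSPB2 counts near 0 do not show that the gene was silent.

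Among 5 further genes of the family, CRYAA (the lens partner of CRYAB) and HSPB7 (a heart-enriched member) had at most 1 count per library, and ODF1 (a sperm tail protein) had counts in 1 shAKR1B1 library, where it had 2. No row matched HSPB9. HSPB11, now named IFT25 for its role in ciliary transport, was at 26.6 ± 1.62 CPM in shAKR1B1 cells, 22.7 ± 2.76 CPM in shSORD cells and 28.9 ± 2.43 CPM in control cells (SD, n = 3 each). It fell in shSORD cells (log2 -0.35, SE 0.0897, edgeR adjusted p = 0.00394) and had a log2 difference of -0.12 in shAKR1B1 cells (edgeR adjusted p = 0.253).

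The genes around CRYAB on chromosome 11 were measured to see whether its higher level extended to its neighbours. In RefSeq order these are PPP2R1B, ALG9, FDXACB1, CFAP68, CRYAB, HSPB2, C11orf52, DIXDC1, DLAT, PIH1D2, NKAPD1, TIMM8B and SDHD, and 10 of the 13 names searched passed the filter. C11orf52 and the read-through gene HSPB2-C11orf52 had 0 counts in every library. The read-through gene, which joins HSPB2 and C11orf52, also overlaps 18.1% of the CRYAB exon length. Reads on shared exons may be missing from these counts, so they do not show that these genes were silent. In shAKR1B1 cells 2 of the 10 rose (DIXDC1, log2 0.26, and NKAPD1, log2 0.25) and 4 fell (PPP2R1B, DLAT, TIMM8B and PIH1D2, log2 -0.33 to -0.54). In shSORD cells 3 rose and 2 fell. Calls among all genes were about as frequent, at 57.4% in shAKR1B1 and 56.5% in shSORD cells. DIXDC1, a regulator of Wnt signalling, rose by 0.75 on the log2 scale there (edgeR adjusted p = 2.18e-07), ALG9, a mannosyltransferase of N-glycan synthesis, by 0.59 (edgeR adjusted p = 5.93e-05) and NKAPD1 by 0.21 (edgeR adjusted p = 0.0296). PPP2R1B, a scaffold subunit of phosphatase 2A, fell by 1.18 (edgeR adjusted p = 5.12e-09) and DLAT, a subunit of pyruvate dehydrogenase, by 0.53 (edgeR adjusted p = 2.71e-05). Another gene overlaps 24.4% of the ALG9 exon length and NKAPD1 overlaps 30.1% of that of TIMM8B, so their values are less certain. None of the 10 neighbours moved as far as CRYAB in either knockdown, and they moved in both directions.

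The partner chaperones of the family did not move as one. HSP70 proteins refold the clients that small heat shock proteins hold. Of 15 tested HSP70 and HSP110 genes, 4 rose and 7 fell in shAKR1B1 cells (median log2 -0.204, against -0.00237 over all genes), and 5 rose and 6 fell in shSORD cells (median 0.00256, against -0.00205). Of all tested genes, 27.8% were called higher and 29.6% lower in shAKR1B1 cells, and 27.5% and 29% in shSORD cells. The stress-inducible HSPA1A was at 66.7, 75.7 and 80.7 CPM in shAKR1B1 cells, at 76.3, 97.8 and 82.4 CPM in shSORD cells and at 49.0, 46.4 and 52.9 CPM in control cells. Every knockdown library lay above every control library, and HSPA1A rose in both knockdowns (log2 0.59, edgeR adjusted p = 5.97e-05, in shAKR1B1 cells and 0.79, edgeR adjusted p = 3.88e-06, in shSORD cells). Its near-identical copy HSPA1B rose by 0.76 and 0.79 in the same order, and reads cannot be divided between these copies with certainty.

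HSPA8, the constitutive HSP70 with which BAG3 works, was at 1288, 1313 and 1432 CPM in shAKR1B1 cells, 1403, 1519 and 1731 CPM in shSORD cells and 1567, 1538 and 1540 CPM in control cells. It fell by 0.20 on the log2 scale in shAKR1B1 cells (edgeR adjusted p = 0.0175), a call that was lost without control replicate 3 (log2 -0.19), without shAKR1B1 replicate 1 (log2 -0.17) and without shAKR1B1 replicate 2 (log2 -0.17). The HSP110 gene HSPA4, a nucleotide exchange factor, fell by 0.61 in shAKR1B1 cells (edgeR adjusted p = 2.41e-06) and by 0.32 in shSORD cells (edgeR adjusted p = 0.00102). HSPA1L, a member close in sequence to HSPA1A, rose by 0.67 in shAKR1B1 cells (edgeR adjusted p = 8.96e-05) and by 0.39 in shSORD cells (edgeR adjusted p = 0.00744).

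Among the other nucleotide exchange partners, which like BAG3 make HSP70 release its client, each gene called against control cells fell. Of 9 tested, 5 fell and none rose in shAKR1B1 cells (median log2 -0.174), and 5 fell and none rose in shSORD cells (median log2 -0.16). Of all tested genes, 29.6% were called lower in shAKR1B1 and 29% in shSORD cells, and 57.4% and 56.5% were called in either direction. HSPBP1 fell by 0.59 in shAKR1B1 cells (edgeR adjusted p = 8.25e-06) and by 0.57 in shSORD cells (edgeR adjusted p = 1.38e-05), and the mitochondrial GRPEL1 fell by 0.51 (edgeR adjusted p = 1.76e-05) and 0.64 (edgeR adjusted p = 2.26e-06) in the same order. Without control replicate 1, control replicate 3 or shSORD replicate 1, the number that fell in shSORD cells was 3. BAG6 fell by 0.36 in shAKR1B1 cells (edgeR adjusted p = 0.000134) and by 0.16 in shSORD cells (edgeR adjusted p = 0.0366). BAG5, which shares the BAG domain with BAG3, fell by 0.36 in shAKR1B1 cells (edgeR adjusted p = 0.000433) and by 0.33 in shSORD cells (edgeR adjusted p = 0.000857).

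In the HSP90 and chaperonin lists, each gene that was called fell, beside 29.6% of all genes called lower in shAKR1B1 cells and 29% in shSORD cells. Of 12 genes of HSP90 and its co-chaperones, 9 fell and 3 were not called in shAKR1B1 cells (median log2 -0.296), and 10 fell and 2 were not called in shSORD cells (median log2 -0.401). HSP90B1, the HSP90 of the endoplasmic reticulum, and CHORDC1 were not called in either knockdown. HSP90AA1, the inducible cytosolic HSP90, fell by 0.44 in shAKR1B1 cells (edgeR adjusted p = 0.000576) and by 0.37 in shSORD cells (edgeR adjusted p = 0.00239). The steroid receptor co-chaperone FKBP5 fell by 0.25 in shAKR1B1 cells (edgeR adjusted p = 0.00154) and by 0.49 in shSORD cells (edgeR adjusted p = 3.95e-06). Its relative FKBP4 fell by 0.31 (edgeR adjusted p = 0.00101) and 0.46 (edgeR adjusted p = 3.32e-05) in the same order. STIP1, which hands clients from HSP70 to HSP90, fell by 0.45 in shAKR1B1 cells (edgeR adjusted p = 4.67e-05) and by 0.44 in shSORD cells (edgeR adjusted p = 6.79e-05). CACYBP fell by 0.42 in shAKR1B1 (edgeR adjusted p = 0.000106) and 0.51 in shSORD cells (edgeR adjusted p = 2.01e-05). Of 10 chaperonin genes, which build the folding chambers for actin, tubulin and mitochondrial proteins, 8 fell and 2 (HSPD1 and HSPE1) were not called in shAKR1B1 cells (median log2 -0.512) and all 10 fell in shSORD cells (median log2 -0.533). HSPE1 was close to the threshold in shAKR1B1 cells (log2 -0.27, edgeR adjusted p = 0.0519) and stayed uncalled in only 8 of 13 alternatives. It was called lower, for example, without shAKR1B1 replicate 3 (log2 -0.33, edgeR adjusted p = 0.0387). CCT2, a subunit of the cytosolic chaperonin, fell by 0.66 in shAKR1B1 cells (edgeR adjusted p = 3.96e-07) and by 0.66 in shSORD cells (edgeR adjusted p = 5.19e-07). Its fellow subunits TCP1 (log2 -0.61) and CCT5 (log2 -0.58) completed the leading 3 in shAKR1B1 cells, and HSPE1, the mitochondrial co-chaperonin (log2 -0.62), and CCT6A (log2 -0.57) those in shSORD cells.

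**Figure D3:**
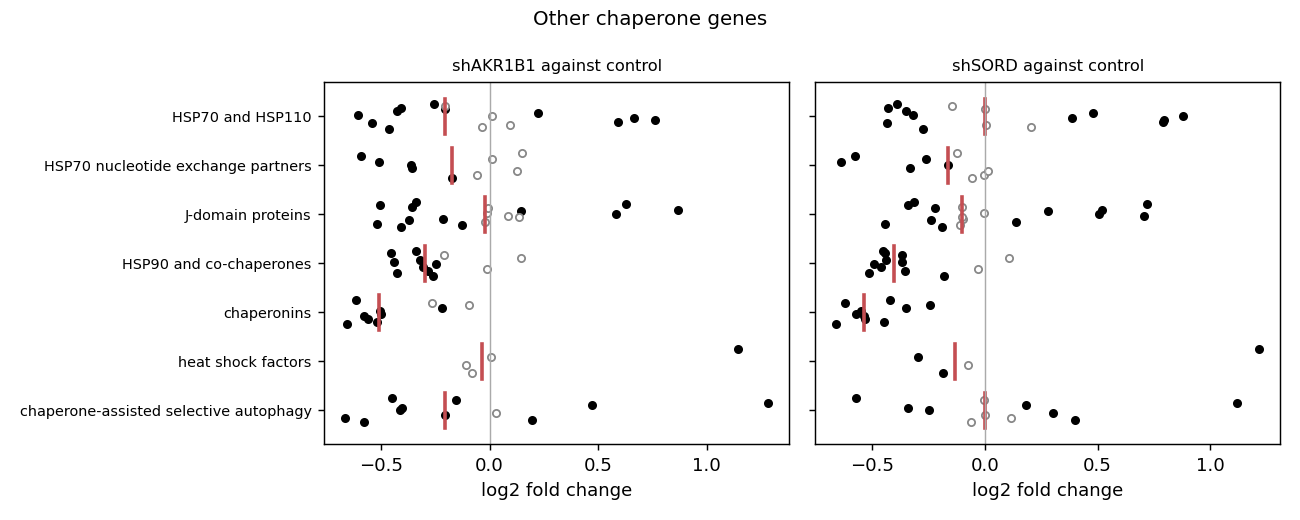
Log2 fold changes (x axis) of the tested genes of the 7 chaperone and autophagy lists (rows) in shAKR1B1 and shSORD cells against control cells, with called genes filled, other genes open and red bars at the list medians. Chaperonin medians are at -0.512 in shAKR1B1 and -0.533 in shSORD cells, and the highest dots in these rows are the heat shock factor HSF4 and the autophagy gene SYNPO2.

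J-domain proteins, which deliver clients to HSP70, were called in both directions: of 17 tested, 4 rose and 8 fell in shAKR1B1 cells (27.8% and 29.6% of all genes did), and 6 rose and 6 fell in shSORD cells (27.5% and 29% of all genes did). DNAJB9, an inducible J-protein of the endoplasmic reticulum, rose by 0.87 in shAKR1B1 cells (edgeR adjusted p = 1.37e-05) and by 0.52 in shSORD cells (edgeR adjusted p = 0.00143). DNAJB4 rose by 0.58 in shAKR1B1 cells (edgeR adjusted p = 0.000221) and by 0.51 in shSORD cells (edgeR adjusted p = 0.000759). DNAJC6 (auxilin, which helps uncoat clathrin vesicles) rose by 0.63 in shAKR1B1 cells (edgeR adjusted p = 1.19e-05) and by 0.72 in shSORD cells (edgeR adjusted p = 3.26e-06).

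Heat shock factors and their known targets gave no single direction. HSF1, the factor behind most heat induction, had a log2 difference of -0.11 in shAKR1B1 cells (edgeR adjusted p = 0.16) and of -0.08 in shSORD cells (edgeR adjusted p = 0.337); without shSORD replicate 2 the shSORD value was -0.15 (edgeR adjusted p = 0.0304). HSF4, the factor known for its role in the lens, was at 15.0, 17.7 and 16.4 CPM in shAKR1B1 cells, at 18.7, 17.7 and 15.2 CPM in shSORD cells and at 7.21, 7.96 and 7.07 CPM in control cells. All knockdown libraries lay above all control libraries, and HSF4 rose by 1.14 in shAKR1B1 cells (SE 0.0965, edgeR adjusted p = 1.27e-07) and by 1.22 in shSORD cells (SE 0.0961, edgeR adjusted p = 8.76e-08). HSF2 fell by 0.30 (edgeR adjusted p = 0.0122) and the HSF1-binding protein HSBP1 by 0.18 (edgeR adjusted p = 0.0366) in shSORD cells. An unnamed gene on the same strand overlaps 31.4% of the HSF4 exon length. Of 19 tested HSF1 targets outside the members, 4 rose and 8 fell in shAKR1B1 cells (median log2 -0.204), and 6 rose and 10 fell in shSORD cells (median log2 -0.18). Over all genes, 57.4% were called in shAKR1B1 and 56.5% in shSORD cells, in either direction. HSPA6, the HSP70 that is nearly silent without heat, had 1 to 11 counts per library and did not pass the filter.

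BAG3, HSPB8, HSPA8 and the ubiquitin ligase STUB1 form the core of chaperone-assisted selective autophagy, which clears damaged filamin. Of 11 tested genes of this route outside the members, 3 rose and 7 fell in shAKR1B1 cells (median log2 -0.204), and 4 rose and 3 fell in shSORD cells (median log2 0.00256). Calls among all tested genes were 27.8% higher and 29.6% lower in shAKR1B1 cells, and 27.5% and 29% in shSORD cells. SYNPO2, which links BAG3 to the membrane that will enclose the client, was at 22.2, 20.2 and 20.8 CPM in shAKR1B1 cells, at 19.9, 15.7 and 20.7 CPM in shSORD cells and at 8.42, 8.51 and 8.96 CPM in control cells. SYNPO2 thus rose in every knockdown library (log2 1.28, SE 0.0987, edgeR adjusted p = 4.71e-08, in shAKR1B1 cells and 1.118, SE 0.099, edgeR adjusted p = 2.79e-07, in shSORD cells). STUB1 fell by 0.41 in shAKR1B1 cells (edgeR adjusted p = 0.000153) and by 0.34 in shSORD cells (edgeR adjusted p = 0.000698), and the autophagy receptor SQSTM1 by 0.41 (edgeR adjusted p = 5.98e-06) and 0.25 (edgeR adjusted p = 0.000766) in the same order. The client FLNA fell by 0.58 in shAKR1B1 cells (edgeR adjusted p = 2.67e-06) and had a log2 difference of -0.06 in shSORD cells (edgeR adjusted p = 0.466), which was -0.14 without shSORD replicate 2 (edgeR adjusted p = 0.0277). STX7 rose by 0.47 in shAKR1B1 cells (edgeR adjusted p = 4.19e-05). VPS18, of the vesicle tethering complex, fell by 0.45 in shAKR1B1 cells and by 0.57 in shSORD cells (edgeR adjusted p = 7.05e-06 in shSORD cells).

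The genes whose pattern over the 9 libraries was most like that of CRYAB were named by the smallest root mean square difference between log2 CPM profiles, each centred on its own mean. The closest 8 were C3P1 (a complement-related pseudogene, 0.312), F10 (coagulation factor X, 0.326), DEGS2 (a sphingolipid desaturase, 0.444), DEFB1 (an antimicrobial defensin, 0.482), CEACAM5 (0.496), CDH17 (an intestinal cadherin, 0.498), CEACAM7 (0.513) and LGALS2 (a galectin, 0.523). CDH17 shows the pattern at a high level, with 74.5, 71.8 and 64.4 CPM in shAKR1B1 cells, 68.3, 55.6 and 53.0 CPM in shSORD cells and 5.99, 7.16 and 6.64 CPM in control cells. All knockdown libraries lay above all control libraries, as for CRYAB, which comes largely from the choice by likeness. The shAKR1B1 libraries were mostly above the shSORD libraries for CDH17, unlike CRYAB. C3P1 had 2, 2 and 4 counts in the control libraries, so its likeness rests on few reads.

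**Figure D4:**
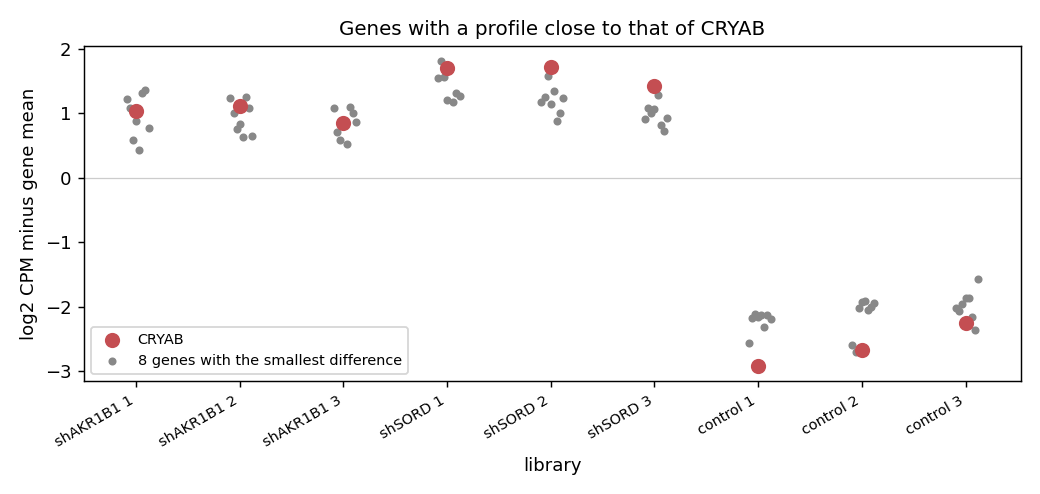
Log2 CPM minus the gene's mean over the 9 libraries (y axis) by library (x axis), for CRYAB in red and the 8 genes with the most similar profile in grey. Root mean square differences from CRYAB run from 0.312 for C3P1 to 0.523 for LGALS2, and all 9 genes lie above 0 in the 6 knockdown libraries and below 0 in the 3 control libraries. The 8 genes were chosen by their likeness to CRYAB in these same libraries, so this shared pattern is no separate result.

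CRYAB also marks muscle and lens, so markers of these and of other cell types were measured beside it; in bulk RNA, more cells of a type and more RNA per cell cannot be told apart. The summed CPM of 13 muscle markers was 5.4 to 6.16 in shAKR1B1, 7.4 to 9.71 in shSORD and 5.04 to 6.43 in control libraries, with 2 of 13 passing the filter (DES and MB) and MYOD1, MYOG and MYH7 at 0 counts in every library. DES, the desmin filament that CRYAB binds, was at 0.184, 0.197 and 0.278 CPM in shAKR1B1, 0.699, 0.951 and 0.477 CPM in shSORD and 0.166, 0.0796 and 0.127 CPM in control libraries, and rose in shSORD cells (log2 2.49, edgeR adjusted p = 6.91e-05). The sum of 8 lens markers was 6.89 to 8.88 CPM in shAKR1B1, 8.0 to 10.7 CPM in shSORD and 8.22 to 9.33 CPM in control libraries, with CRYBB1 and LIM2 at 0 counts in every library. The muscle sum was thus highest in the shSORD libraries, and the shAKR1B1 and control libraries overlapped in both sums. Each sum came mostly from a single gene. For muscle this was MB, at a mean of 5.17 CPM in shAKR1B1, 7.48 CPM in shSORD and 5.31 CPM in control cells. For lens it was BFSP1, at 6.26, 7.35 and 7.67 CPM in the same order, which fell in shAKR1B1 cells (log2 -0.298, edgeR adjusted p = 0.0456). The lens marker CRYGS rose in shAKR1B1 (log2 0.749, edgeR adjusted p = 0.00594) and in shSORD cells (log2 0.885, edgeR adjusted p = 0.00168). A link of these markers to CRYAB was not tested.

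The sum of 8 fibroblast markers was 9.23 to 10.7 CPM in shAKR1B1, 35.4 to 56.9 CPM in shSORD and 16.2 to 17.8 CPM in control libraries, so it was highest in the shSORD libraries, where HSPB8 and CRYAB were also highest. Most of this sum was COL1A1, at a mean of 8.92, 36.4 and 15.0 CPM in the same order. Of the 6 tested fibroblast genes, 1 rose and 2 fell in shAKR1B1 cells, and 5 rose in shSORD cells. THY1 (1.01 against 1.39 CPM) and the scarce PDGFRA (0.0926 against 0.187 CPM) had lower means in shSORD than in control cells. The epithelial sum was 11200 to 11700 CPM in shAKR1B1, 9060 to 10800 CPM in shSORD and 6690 to 6850 CPM in control libraries, with 6 of 6 genes higher in both knockdowns. Among all tested genes, 27.8% were called higher and 29.6% lower in shAKR1B1 cells, and 27.5% and 29% in shSORD cells. The part of either marker group in the CRYAB and HSPB8 values was not tested. The shSORD libraries also varied more among themselves than the libraries of the other groups.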

How the data were processed

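RNA-seq counts per gene of 9 A549 libraries were used as deposited. Per the submitters' processing notes, cutadapt 1.9.1, STAR 2.5.2b, featureCounts 1.5.1, DESeq2 1.12.3 and the build GRCh37 were named; whether counting used strand is not given in the sources used here. Of 57905 gene IDs, 51996 matched a symbol and 52338 an exon length (GENCODE 29, used for lengths and overlaps only). Library sizes were scaled by TMM and tested with edgeR 4.0.16 in R 4.3.3: filterByExpr, 1 mean per group over 9 libraries, quasi-likelihood test, Benjamini-Hochberg over 16916 genes, called at an adjusted p under 0.05. The fit was tested on simulated data. Library totals of 32436524 to 43044456 limit precision for genes of few counts. Tried alternatives were DESeq2 1.42.0, other scaling and filters, the replicate block, fits on fewer groups and leaving out each library.

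All 7 members and the called CRYAB neighbours were named, and for each list the up to 3 called genes of the largest change with a mean of 50 counts or more. HSF1, HSPA6, HSPA8, STUB1, SQSTM1, HSP90B1, CHORDC1, HSPD1 and DES fall outside that rule and were named after their values were seen. The cell type markers MB, BFSP1, CRYGS, COL1A1, THY1 and PDGFRA were also named after their values were seen. One gene that the rule names is not reported here. The 8 genes most like CRYAB used log2 CPM with a prior count of 2. The members and lists were chosen with earlier results of these data known. Same-numbered shAKR1B1 and shSORD libraries deviated together (correlations 0.102 to 0.193), a hint of pairing read from the data and not from the labels; the printed values come from the fit without the block, and the blocked fit is an alternative. Same-numbered knockdown and control libraries did not (-0.0285 to 0.0314). No library was a copy of another.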

Additional observations from a re-analysis of the deposited data

How the results depend on the processing

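The 15 member values (5 genes in 3 comparisons) kept their side of the threshold or, for CRYAB, stayed within the spread between libraries in 192 of 192 alternatives: DESeq2, its size factors or library totals in edgeR, no filter or a stricter one, only the groups compared, the replicate block, and leaving out each library. HSPB6 gave no value under the stricter filter. The numbers of genes called over the whole table stayed within 1.5 times in 39 of 39 alternatives. With the replicate block they were 9994 for shAKR1B1 against control, 9817 for shSORD against control and 5643 between the knockdowns, against 9716, 9565 and 5186 without it, and no member call changed. Of 907 alternatives for 70 values of other named genes, 892 kept the call, 8 lost it and 7 gained one (HSPE1 in shAKR1B1, and HSF1 and FLNA in shSORD against control cells), with none turned round. Of the 9 nucleotide exchange partners, 5 were called in shSORD against control cells, but 3 with library totals only, 3 with the stricter filter, 3 with only the 2 groups compared, and 3 to 4 when 1 library was left out. With a prior count of 0.5, 5 of the 8 genes most like CRYAB were named again, and 6 to 7 when 1 library was left out. The cause was not tested. Few counts limit HSPB2, HSPB3 and HSPB6 and the control level of CRYAB.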

Other observations

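Of 81 tested genes in the chaperone and autophagy lists, 5 had the calls of HSPB8 (higher in shSORD than in control cells, lower in shAKR1B1 than in shSORD cells, and not called in shAKR1B1 against control cells), a pattern searched for after the values were seen. They were HSPA2, SERPINH1, DNAJB2, MAP1LC3B and DNAJB1. Among all tested genes, 27.5% were called higher in shSORD than in control cells and 15.1% lower in shAKR1B1 than in shSORD cells. The share of all genes with the whole pattern was not counted, so it is not known whether 5 of 81 is more than usual. HSPA2, an HSP70 best known from the testis, was at 43.5, 45.1 and 46.5 CPM in shAKR1B1 cells, at 79.3, 89.9 and 77.9 CPM in shSORD cells and at 46.5, 42.9 and 44.8 CPM in control cells. It rose in shSORD over control cells (log2 0.88, SE 0.0662, edgeR adjusted p = 5.37e-08), had a log2 difference of 0.01 in shAKR1B1 against control cells (edgeR adjusted p = 0.909), and was lower in shAKR1B1 than in shSORD cells (log2 -0.87, edgeR adjusted p = 1.43e-07). DNAJB2, a J-domain protein with ubiquitin-interacting motifs, was at 25.9, 27.6 and 25.96 CPM in shAKR1B1 cells, at 39.5, 44.6 and 38.3 CPM in shSORD cells and at 25.3, 25.2 and 24.4 CPM in control cells. It rose in shSORD over control cells (log2 0.71, SE 0.069, edgeR adjusted p = 7.36e-07), had a log2 difference of 0.08 in shAKR1B1 against control cells (edgeR adjusted p = 0.323), and was lower in shAKR1B1 than in shSORD cells (log2 -0.62, edgeR adjusted p = 6.4e-06). SERPINH1, a chaperone for collagen in the endoplasmic reticulum, was at 81.2, 82.4 and 84.0 CPM in shAKR1B1 cells, at 136.0, 143.4 and 127.9 CPM in shSORD cells and at 84.4, 77.9 and 82.5 CPM in control cells. It rose in shSORD over control cells (log2 0.73, SE 0.0568, edgeR adjusted p = 7.05e-08), had a log2 difference of 0.02 in shAKR1B1 against control cells (edgeR adjusted p = 0.817), and was lower in shAKR1B1 than in shSORD cells (log2 -0.72, edgeR adjusted p = 2.26e-07). All 3 shSORD libraries lay above the 6 others for these 3 genes. MAP1LC3B, an autophagosome protein, rose by 0.30 (edgeR adjusted p = 0.000738) and DNAJB1 by 0.14 (edgeR adjusted p = 0.0327) in shSORD over control cells, and the DNAJB1 call was lost without filtering (edgeR adjusted p = 0.122) and without control replicate 1, 2 or 3 or shSORD replicate 2 (edgeR adjusted p = 0.0556 to 0.155).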
